A study of Arabidopsis thaliana with 12 samples.

Results

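The genes described here are 8 targets of the response of Arabidopsis thaliana to mitochondrial dysfunction, chosen by name and locus: UPOX (AT2G21640), UGT74E2 (AT1G05680), ABCB4 (AT2G47000), BCS1 (AT3G50930), SOT12 (AT2G03760), At12Cys-2 (AT5G09570), HSP23.5 (AT5G51440) and TIM17-1 (AT1G20350). They are 8 of the 33197 genes with an identifier in the deposited table. The study sequenced RNA from leaves aged 18 days in 4 groups of 3 libraries, of which 1 is wild type Columbia and the others are mutants labelled anac017, anac082 or anac090. The mutants are T-DNA insertion lines in the Columbia background from the SALK, SAIL or GABI-KAT collections, each for the NAC transcription factor gene of its name, and the labels give no allele. All values are on the deposited log2 scale, log2(abundance + 1), after quantile normalization between libraries. The depth behind them is unknown. Levels are means ± SD over n = 3 libraries, changes are log2 differences ± SE, and adjusted p-values come from limma, taken over 16817 tested genes and called under 0.05. Whether replicate libraries come from different plants is not said in the labels, so the p-values rest on a spread between samples that may be only technical. Each comparison with wild type uses the same 3 wild type libraries.

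In plants, trouble in the mitochondrial electron transport chain is signalled back to the nucleus. ANAC017 is a NAC factor held in the membrane of the endoplasmic reticulum. It is released by cleavage when mitochondrial respiration is inhibited and activates genes that carry a short promoter element, the mitochondrial dysfunction motif, among them the alternative oxidase AOX1A and the related factor ANAC013. The response is known for enzymes, transporters and chaperones that alter respiration, hormone metabolism and protein import under stress.

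The transcripts of the targeted NAC genes went against 2 of the 3 labels. ANAC017 stood at 5.99, 5.88 and 5.79 in wild type and at 6.68, 6.84 and 6.72 in the libraries labelled anac017, which were higher than all other 9. It rose 1.81-fold there (0.86 ± 0.14, limma adjusted p = 0.0152), a call lost without wild type replicate 2 or 3 or any one anac017 library, at an adjusted p of up to 0.0807. ANAC082 rose 28.0-fold in the libraries labelled anac082 (4.81 ± 0.11, limma adjusted p = 2.68e-09), and ANAC090 differed by -0.60 ± 0.30 in those labelled anac090 (limma adjusted p = 0.192). ANAC082 also rose in the libraries labelled anac017, with means of 6.06 there and 5.02 in wild type. That call was kept with any 1 library left out (limma adjusted p of at most 0.0112). Where in each gene the reads lay is not shown by the values, so the lines are called by their labels and each direction below is that of the labelled libraries. A pair of libraries stood apart from their groups. By the median absolute difference over genes, anac082 replicate 1 was nearer to each wild type library (0.127 to 0.191) than to the other anac082 libraries (0.195 and 0.200), which differed from each other by 0.116. Replicate 3 of anac090 differed from every other library by 0.264 to 0.419.

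To show the promoter element at these loci, the window from 250 bases before to 50 bases after each RefSeq gene start was searched on both strands for CTTGNNNNNCAAG or CTTGNNNNNCACG, where N is any base. The first form is its own reverse complement, so such a match lies on both strands and was counted once. A match was found at 5 of the 8 targets and at 442 of all 32454 genes searched, or 1.36%. The element was described from genes of this response, so its presence here is no independent result. A match is a description of the letters and not a site shown to be bound. The matches are printed 5′ to 3′ with the 13 bases of the motif in capitals and 8 flanking bases on each side, from the RefSeq sequence TAIR10.1.

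UPOX: tttagtaaCTTGCTCTCCAAGgagatcta
HSP23.5: ttattttaCTTGGAGACCACGcagttcta
UGT74E2: ccgcacatCTTGGTCGCCACGgaacatag
SOT12: atcctttaCTTGAAGAGCACGtagaatat
At12Cys-2: atattcccCTTGCCCGTCACGtttcttgc

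The UPOX match lay at chr2:9254319-9254347 on the plus strand, and its first motif base was 51 bases before the gene start. That of HSP23.5 lay at chr5:20891045-20891073 on the plus strand, 110 bases before the start. The remaining 3 began inside the transcribed region, 14 bases after the start of UGT74E2 (chr1:1704805-1704833, minus strand), 7 after that of SOT12 (chr2:1150637-1150665, plus strand, opposite to the gene) and 14 after that of At12Cys-2 (chr5:2970503-2970531, minus strand, opposite to the gene). Only UPOX carried the first, symmetric form. No match was found in this window at ABCB4, BCS1 or TIM17-1, and none was added at any target when the window was extended to 1000 bases before the start. For both targets with the element upstream of the start, the 150 bases before it are shown, with the same motif in capitals (UPOX at chr2:9254228-9254377 and HSP23.5 at chr5:20891013-20891162, both plus strand).

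UPOX upstream: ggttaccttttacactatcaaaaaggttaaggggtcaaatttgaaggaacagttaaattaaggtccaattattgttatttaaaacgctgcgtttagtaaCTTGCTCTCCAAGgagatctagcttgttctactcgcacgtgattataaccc
HSP23.5 upstream: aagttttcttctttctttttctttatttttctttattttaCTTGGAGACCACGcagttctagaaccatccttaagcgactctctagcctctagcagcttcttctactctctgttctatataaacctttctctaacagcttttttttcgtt

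The element was also found at 5 of 13 other genes of the response, and AOX1A held it in 2 places. These are shown because one of them has the same 13 bases as UPOX. ANAC017 itself held it, 1 of 13 regulators searched, and so did 4 of 18 paralogs and neighbours of the targets: UGT74E1, the tandem neighbour of UGT74E2, HSP23.6, the paralog of HSP23.5, AT2G18193 and ABCB11.

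AOX1A, first: atctagctCTTGGCGACCACGcaagtatc
AOX1A, second: tcttccatCTTGCTCTCCAAGaaaaatct
ANAC017: ccaacattCTTGTCTGACACGacagaggt
UGT74E1: ccacacatCTTGGTAGCCACGtttgacct

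The first AOX1A match began 3 bases before the gene start (chr3:7906510-7906538, plus strand) and the second 25 bases after it (chr3:7906537-7906565, plus strand). The ANAC017 match began 110 bases before the start (chr1:12451287-12451315, minus strand, opposite to the gene) and that of UGT74E1 108 before (chr1:1702837-1702865, minus strand). Among tested genes found in RefSeq, 148 of 16683 (0.887%) held a match. Of these 148, 5 rose in the libraries labelled anac017 (3.38%, beside 1.47% of all genes tested): UPOX, UGT74E2, ANAC017, AT1G24095 and AT3G14700. UPOX and UGT74E2 are targets of the response from whose genes the element was described, and ANAC017 is the gene targeted in the anac017 line. UGT74E2 also entered the fit only through the anac017 libraries, so the share of 3.38% is no independent result. TRFL8 fell. The median change of the 148 was 0.05, against -0.02 for all genes tested. In the libraries labelled anac090, 5 of the 148 rose (3.38%) and 6 fell, beside 3.66% and 3.65% of all genes tested. The heat shock element, searched as GAANNTTCNNGAA on both strands, was at none of the 8 targets and at 151 genes (0.465%). Of the 87 tested genes that held it, 4 rose in anac017 (4.60%) and 1 fell, with a median of 0.07.

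**Figure D1:**
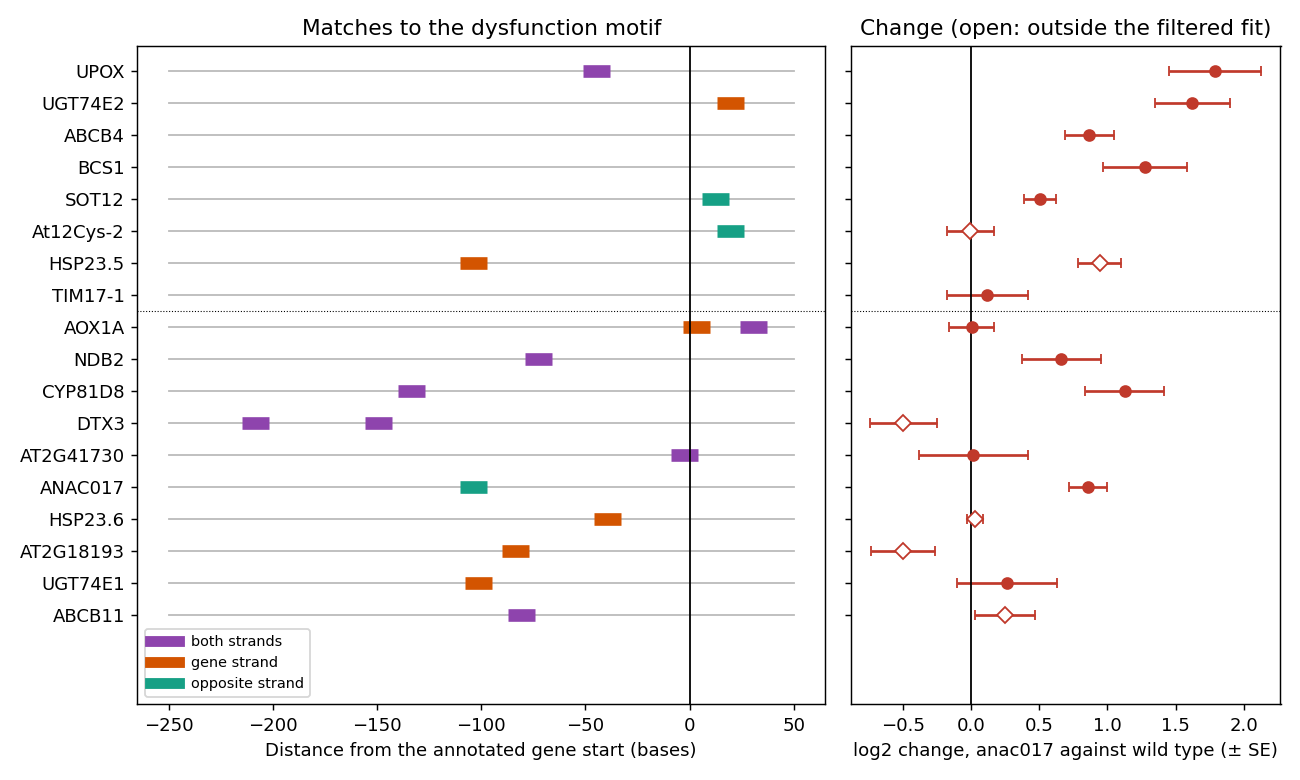
Left, matches to the dysfunction motif in the window from 250 bases before to 50 after the gene start (x axis, bases) for the targets and, under the dotted line, the other listed genes with a match. Right, log2 change ± SE in the libraries labelled anac017 against wild type (n = 3 each), with open diamonds for genes outside the filtered fit. UPOX, at 1.79, and AOX1A, at 0.01, share the 13 bases of 1 match.

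In the libraries labelled anac017, UPOX, UGT74E2 and ABCB4 rose and none of the targets fell. UGT74E2 reached the fit only through the anac017 libraries: its mean back-transformed abundance was 1.53, and 0.757 without them, against the filter of 1. Leaving it aside, 2 of the 5 other targets tested rose, where 1.47% of all genes tested rose and 0.612% fell. BCS1 and SOT12 missed the threshold and passed it when the replicate number entered the model as a block, which gave 4 of these 5 where 4.11% of all genes rose. The same 4 passed with only the groups compared, where 10.3% of all genes rose, and with library weights, where 13.0% did. With no filter, over 33197 genes, the adjusted p-values were 0.0846 for UPOX, 0.0542 for UGT74E2 and 0.0922 for ABCB4. At12Cys-2 and HSP23.5 lay under the filter and are given by their values. UPOX, ABCB4, BCS1 and SOT12 lay above wild type in every anac017 library, as did 19.0% of all genes tested. UGT74E2 and HSP23.5 were separated in the same way. All of these but BCS1 also lay above every anac082 library and above every anac090 library, where 11.3% and 9.53% of all genes tested did.

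UPOX (chromosome 2, 9254459 to 9255625 in the TAIR10 coordinates of the table) encodes a mitochondrial protein known as a marker of oxidative stress. It stood at 2.45, 2.21 and 2.58 in wild type and at 4.34, 4.42 and 3.84 in the libraries labelled anac017. The values were 2.85, 2.21 and 1.71 in those labelled anac082 and 2.44, 2.27 and 1.25 in those labelled anac090. Every anac017 library was higher than all other 9, with a gap of 1.26 to the highest wild type library. The other 3 groups overlapped, and the lowest value of all was that of anac090 replicate 3. UPOX rose 3.45-fold in anac017 (1.79 ± 0.34, limma adjusted p = 0.0284). Its changes were -0.15 ± 0.34 in anac082 (limma adjusted p = 0.908) and -0.43 ± 0.34 in anac090 (limma adjusted p = 0.405). Compared directly, the libraries labelled anac017 were 3.84-fold above anac082 (1.94 ± 0.34, limma adjusted p = 0.0255) and 4.64-fold above anac090 (2.21 ± 0.34, limma adjusted p = 0.00992). Leaving out any of the 3 wild type or 3 anac017 libraries took the call against wild type to an adjusted p of 0.0668 to 0.115, while the change stayed between 1.68 and 1.97. The call against anac082 was lost without any one anac017 library or anac082 replicate 2 or 3 (adjusted p = 0.0594 to 0.119), and that against anac090 without anac017 replicate 1 or 2 (0.0539 and 0.0535).

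UGT74E2 (chromosome 1, 1703092 to 1704691) is a glucosyltransferase of the auxin precursor indole-3-butyric acid. Its values were 0.76, 0.41 and 0.58 in wild type, 1.66, 2.77 and 2.19 in anac017, 0.58, 1.14 and 0.74 in anac082, and 0.74, 0.84 and 1.30 in anac090. Again the anac017 libraries were the highest, although their own range, 1.11, was the widest of the 4 groups. UGT74E2 rose 3.08-fold (1.62 ± 0.27, limma adjusted p = 0.0196), a value that the built-in pseudocount of 1 makes smaller at this low level. With a pseudocount of 0.1 in its place the rise was 6.21-fold (2.64 ± 0.45, limma adjusted p = 0.0206). It was also higher in anac017 than in anac082 (1.39 ± 0.27, limma adjusted p = 0.0448), a call lost with the pseudocount of 0.1 (2.12 ± 0.45, limma adjusted p = 0.0630). Against anac090 the difference was 1.25 ± 0.27, with a limma adjusted p of 0.0534 and 0.0465 with the replicate block, under which 1.90% of genes were higher. The call against wild type was lost without wild type replicate 2 or 3 (adjusted p = 0.0898 and 0.0847) and without anac017 replicate 2 or 3 (0.0558 and 0.0784). The call against anac082 was lost, with an adjusted p of 0.0675 to 0.173, without any one wild type or anac082 library, without anac017 replicate 2 or 3 and without anac090 replicate 1.

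ABCB4 (chromosome 2, 19309868 to 19315241) is an auxin transporter of the ABC family, studied mainly in roots. Wild type libraries stood at 2.68, 2.37 and 2.23, and those labelled anac017 at 3.27, 3.26 and 3.34. The anac082 values were 2.53, 2.79 and 2.36 and those of anac090 were 2.62, 2.42 and 3.08. The 3 anac017 libraries were close together, with an SD of 0.05, and above the rest by 0.18 or more. ABCB4 rose 1.82-fold (0.87 ± 0.18, limma adjusted p = 0.0375). Its differences between anac017 and the other mutants did not pass (0.73 ± 0.18, limma adjusted p = 0.113 against anac082, and 0.59 ± 0.18, limma adjusted p = 0.178 against anac090). The rise missed the threshold without wild type replicate 2 or 3, any anac017 library, anac082 replicate 1 or 3, or anac090 replicate 1 (adjusted p = 0.0511 to 0.139), at changes of 0.77 to 0.88.

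SOT12 (chromosome 2, 1149337 to 1150663) is a sulfotransferase that acts on salicylic acid, flavonoids and brassinosteroids. It varied little in wild type, at 4.45, 4.51 and 4.47, and in anac090, at 4.58, 4.50 and 4.57. Its values were 4.94, 5.23 and 4.79 in anac017 and 4.48, 4.17 and 4.36 in anac082. The anac017 libraries lay above all others, by 0.28 from wild type. The difference from wild type was 0.51 ± 0.12, or 1.42-fold, with a limma adjusted p of 0.0535 and 0.0451 with the replicate block. It was higher in anac017 than in anac082 (0.65 ± 0.12, limma adjusted p = 0.0298) and this call was lost without any one wild type library, anac017 replicate 1 or 2, anac082 replicate 2 or 3, or anac090 replicate 1 (adjusted p = 0.0541 to 0.131).

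HSP23.5 (chromosome 5, 20891163 to 20892211) is a small heat shock protein of mitochondria, and it was near the lower end of the scale. Wild type stood at 0.95, 0.29 and 0.31, and the libraries labelled anac017 at 1.50, 1.43 and 1.46. The values were 0.47, 0.20 and 0.39 in anac082 and 0.90, 0.91 and 0.85 in anac090. The anac017 libraries were the highest 3 of the 12, and wild type replicate 1 lay closer to anac090 than to the other wild type libraries. An exact two-sided permutation test of anac017 against wild type gave p = 0.1, the smallest that 3 against 3 allows. In the fit without a filter, over 33197 genes, the change was 0.94 ± 0.16 (limma adjusted p = 0.0468), where 0.413% of all genes were called higher, and the difference from anac082 was 1.11 (limma adjusted p = 0.0283, where 0.316% were).

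Among the targets that were higher in anac017, UPOX and HSP23.5 carry a match before the start and UGT74E2 and SOT12 just after it. ABCB4 and BCS1 carry none in this window, and the part of a match in the values was not tested. At12Cys-2 (chromosome 5, 2970669 to 2972181), a small twin-cysteine protein of unknown action, carries a match and was not higher in anac017. It stood at 0.15, 0.37 and 0.22 in wild type, 0.38, 0.13 and 0.21 in anac017, 0.32, 0.49 and 0.27 in anac082, and 0.95, 0.97 and 0.28 in anac090. Only anac090 replicates 1 and 2 were set apart from the rest. The difference of anac090 from wild type was 0.49 in the unfiltered fit (limma adjusted p = 0.190), and the exact two-sided permutation p was 0.2.

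**Figure D2:**
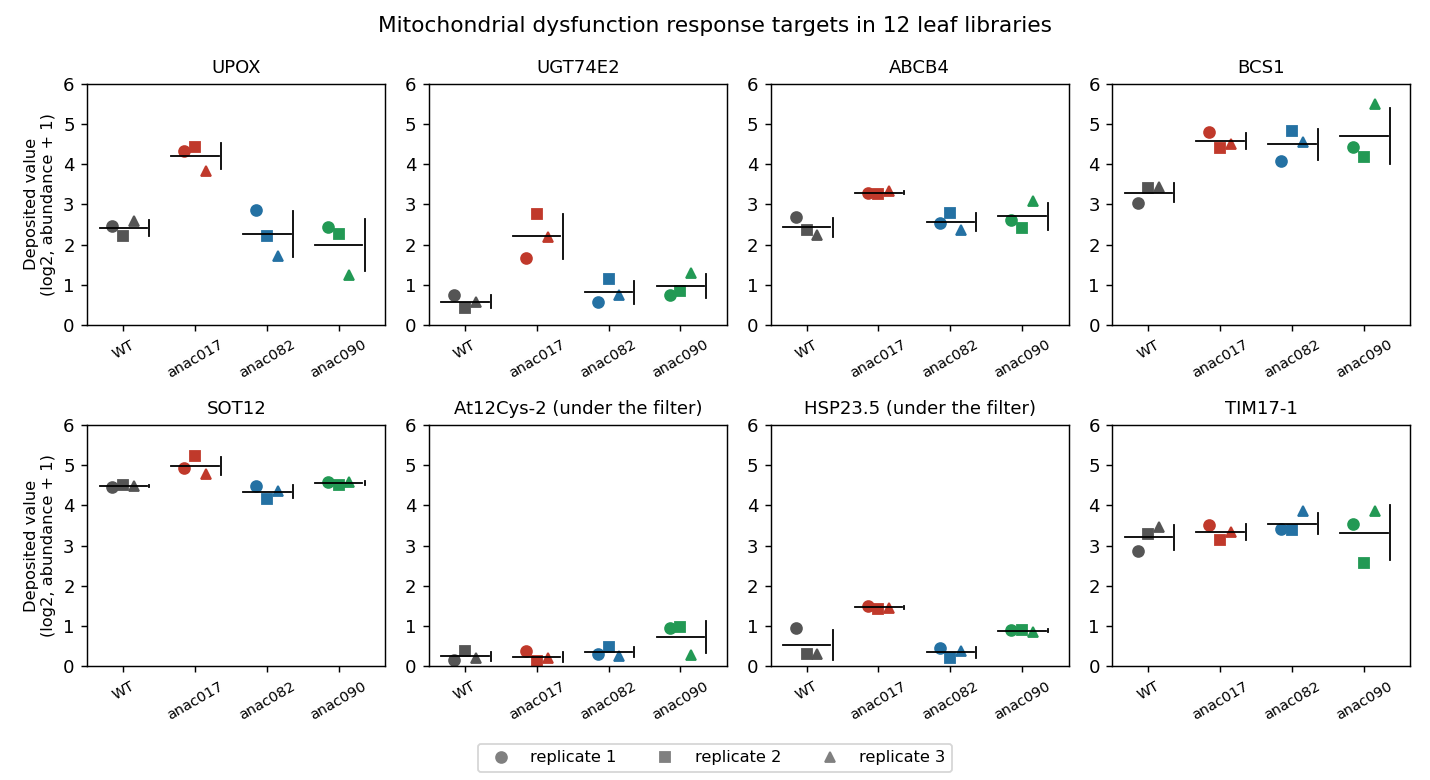
Deposited log2 values (y axis, log2 of abundance + 1) of the 8 targets in each library, by group; marker shapes give the replicate number, horizontal bars the mean and vertical bars the SD (n = 3). The 3 anac017 libraries lie above all other 9 for UPOX, UGT74E2, ABCB4, SOT12 and HSP23.5, and for BCS1 the 3 mutant groups all lie above wild type.

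BCS1 had another pattern. BCS1 (chromosome 3, 18929526 to 18931839) is an AAA-ATPase of the outer mitochondrial membrane, known to be induced by salicylic acid and stress. Its values were 3.03, 3.41 and 3.44 in wild type, 4.79, 4.40 and 4.51 in anac017, 4.08, 4.83 and 4.56 in anac082, and 4.42, 4.18 and 5.50 in anac090. Every one of the 9 mutant libraries was above every wild type library, by at least 0.64, and the mutant groups overlapped one another. Of all genes tested, 19.0% were so separated in anac017, 8.37% in anac082 and 13.4% in anac090, and BCS1 was the only tested target among them in the last 2. In the libraries labelled anac090, BCS1 rose 2.66-fold (1.41 ± 0.31, limma adjusted p = 0.0356), the only target called there among 6, where 3.66% of all genes tested rose. This call missed the threshold without any one wild type or anac017 library, anac082 replicate 2 or 3 or anac090 replicate 1 (adjusted p = 0.0503 to 0.101), and its change was 1.01 without anac090 replicate 3. The difference in anac017 was 1.27 ± 0.31 (limma adjusted p = 0.0570, and 0.0387 with the replicate block) and that in anac082 1.20 ± 0.31 (limma adjusted p = 0.652). Differences between the mutants were 0.08 ± 0.31 for anac017 minus anac082, -0.14 ± 0.31 for anac017 minus anac090 and -0.21 ± 0.31 for anac082 minus anac090, all under their SE.

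TIM17-1 (chromosome 1, 7043713 to 7044592) is an isoform of the channel-forming part of the translocase that imports proteins across the inner mitochondrial membrane. It stood at 2.87, 3.29 and 3.46 in wild type, 3.52, 3.13 and 3.33 in anac017, 3.40, 3.39 and 3.86 in anac082, and 3.53, 2.56 and 3.86 in anac090. All 4 groups overlapped, and anac090 alone spanned 1.31. The changes were 0.12 ± 0.29 in anac017 (limma adjusted p = 0.827), 0.34 ± 0.29 in anac082 (limma adjusted p = 0.757) and 0.11 ± 0.29 in anac090 (limma adjusted p = 0.821).

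No target passed in the libraries labelled anac082 against wild type, where 0.0297% of all genes rose and 0.0178% fell, or 3.71% and 3.46% at an unadjusted p under 0.05. With anac082 replicate 1 and anac090 replicate 3 left out, a setting chosen after seeing the data, BCS1 was called there (1.40, limma adjusted p = 0.0151), where 2.48% of all genes rose. Under that setting 10.5% of all genes rose in anac017, among them UPOX, UGT74E2, ABCB4, BCS1 and SOT12. Between the mutants, UPOX and SOT12 were higher in anac017 than in anac082, 2 of 5 where 0.773% of all genes were, as was UGT74E2, which those libraries had brought into the fit, and UPOX alone was higher in anac017 than in anac090, where 1.31% were. No target was called between anac082 and anac090, where 0.0119% of genes were higher and 0.00% lower in limma, or 6.11% and 5.27% at an unadjusted p under 0.05. The median change of the 5 tested targets other than UGT74E2 was 0.87 in anac017, 0.14 in anac082 and 0.11 in anac090, beside -0.02, -0.01 and -0.03 for all genes tested.

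**Figure D3:**
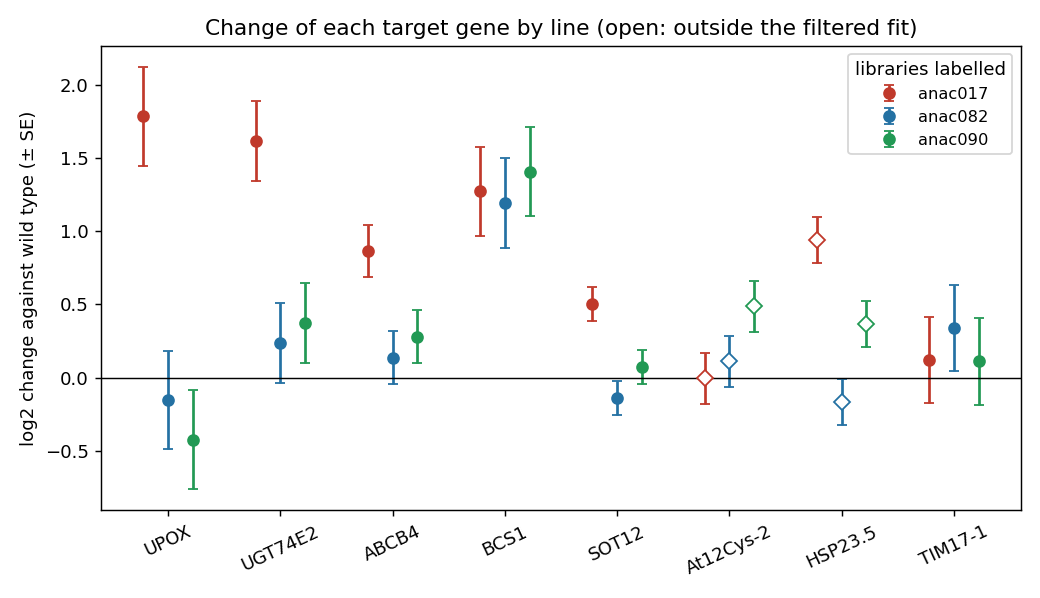
Log2 change ± SE against wild type (y axis) of each target in the libraries labelled anac017, anac082 and anac090 (n = 3 per group), with open diamonds for the targets outside the filtered fit. UPOX and UGT74E2 stand highest in anac017, at 1.79 and 1.62, while BCS1 lies at 1.20 to 1.41 in all 3 lines.

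The order of the group means differed between targets. It ran from anac017 down to anac090, anac082 and wild type for UGT74E2 and ABCB4, and from anac017 down to wild type, anac082 and anac090 for UPOX. Below anac017, neighbours in these orders overlapped. SOT12 and HSP23.5 were lowest in anac082, and BCS1 and At12Cys-2 were highest in anac090. Over the 12 libraries, which share their groups, Pearson r was 0.88 between UGT74E2 and ABCB4, 0.81 between UPOX and SOT12 and 0.84 between SOT12 and HSP23.5. UPOX and BCS1 were at -0.02, and after each group's mean was removed they were at -0.72. BCS1 and TIM17-1 were at 0.53, and at 0.73 within groups. These correlations are descriptions of 12 libraries and were not tested.

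The other genes of the response gave a mixed picture in anac017. None of the 9 tested of 13 passed. With the replicate block 3 did, GSTU24, AT2G32020 and CRF6, where 4.11% of all genes rose. All 9 changes were above 0, with a median of 0.75. That median is the change of AT2G32020, which reached the fit only through the anac017 libraries. Its mean back-transformed abundance was 1.20, and 0.861 without them, against the filter of 1. Its call with the block and its part in these counts are therefore no independent result. The glutathione transferase GSTU24 stood at 1.55, 1.70 and 1.73 in wild type and at 2.41, 3.56 and 3.44 in anac017, without overlap (1.48 ± 0.34, limma adjusted p = 0.0525, block 0.0248). Of all genes tested, 19.0% lay above wild type in this way. The cytochrome P450 CYP81D8 differed by 1.13 ± 0.29 (limma adjusted p = 0.0689, block 0.0603), the acetyltransferase-like gene AT2G32020 by 0.75 ± 0.18 (0.0594, block 0.0451) and the cytokinin response factor CRF6 by 0.69 ± 0.21 (0.0932, block 0.0230). AOX1A, the alternative oxidase that is the usual reporter of the response, stood at 5.48, 5.49 and 5.67 in wild type and at 5.42, 5.76 and 5.49 in anac017. These groups overlapped, and the change was 0.01 ± 0.16 (limma adjusted p = 0.984). AOX1A carries the motif in 2 places, 1 of them with the bases of UPOX, and whether a match bears on any change was not tested. The median of the 9 in the libraries labelled anac090 was 0.47. NDA2, an alternative NADH dehydrogenase, rose there (1.04 ± 0.26, limma adjusted p = 0.0447), 1 of 9 where 3.66% of all genes tested rose. That call was lost without any one wild type or anac017 library, anac082 replicate 2 or 3, or anac090 replicate 1 or 3 (adjusted p up to 0.120). None passed in anac082, at a median of 0.35. NDB4, GSTU25, HRE2 and DTX3 lay under the filter, and HRE2 was listed at 0 in all 12 libraries.

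Among 13 regulators of the response, 12 were tested and 2 rose in anac017, ANAC017 and ANAC013, where 1.47% of all genes tested rose. ANAC013, a membrane-bound NAC factor that also binds the motif, stood at 3.02, 2.71 and 3.03 in wild type and at 3.71, 3.70 and 3.77 in anac017. These did not overlap, like 19.0% of all genes tested, and ANAC013 rose by 0.81 ± 0.16 (limma adjusted p = 0.0314). This was lost without any one wild type or anac017 library, anac082 replicate 2 or 3, or anac090 replicate 1 (adjusted p up to 0.126). ANAC016, which lies next to ANAC017 on chromosome 1, differed by 1.14 ± 0.29 (limma adjusted p = 0.0644, block 0.0183). It rose in anac090 (1.84 ± 0.29, limma adjusted p = 0.0222), where MYB29, a factor of aliphatic glucosinolate synthesis named as a negative regulator of the response, fell by 1.12 on the log2 scale (SE 0.28, limma adjusted p = 0.0418). Without any one wild type library both calls were lost, and that of MYB29 also without any one anac017 library, anac082 replicate 2 or 3, or anac090 replicate 1 or 3 (adjusted p up to 0.120). In anac090, 3.66% of all genes tested rose and 3.65% fell. The co-regulator RCD1, which represses ANAC013, differed by 0.16 ± 0.15 in anac017 (limma adjusted p = 0.526). ABI4, a repressor of AOX1A, was listed at 0 in all 12 libraries. The median over the regulators was 0.48 in anac017, 0.09 in anac082 and 0.30 in anac090.

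Of 18 paralogs and tandem neighbours of the targets, 12 were tested. In anac017 none rose and 1 fell, where 1.47% and 0.612% of all genes tested did. SOT11, the tandem neighbour of SOT12, stood at 5.38, 5.66 and 5.96 in wild type and at 4.77, 4.95 and 4.73 in anac017, and it fell by 0.85 on the log2 scale (SE 0.19, limma adjusted p = 0.0496) where SOT12 was higher. The fall of SOT11 was lost without any one library other than anac090 replicates 2 and 3 (adjusted p up to 0.168). UGT74E1, beside UGT74E2 and with a motif match of its own, differed by 0.27 ± 0.37 (limma adjusted p = 0.675), and the groups overlapped. The auxin transporters ABCB19 and ABCB1 were at -0.84 ± 0.42 and -0.46 ± 0.23 (limma adjusted p = 0.231 and 0.235), with every anac017 library below every wild type library. Of all genes tested, 22.6% lay below wild type in this way. At12Cys-1, the paralog of At12Cys-2, was at 0.53 ± 0.18 (limma adjusted p = 0.108). TIM17-2, another isoform of TIM17-1, was at 0.09 ± 0.10 (limma adjusted p = 0.605). Close to BCS1 in pattern was AT5G17760, another AAA-ATPase of that family, which was above wild type in all 9 mutant libraries and rose in anac090 (1.77 ± 0.41, limma adjusted p = 0.0378). That rise was lost without any one wild type or anac017 library, anac082 replicate 2 or 3, or anac090 replicate 1 or 3 (adjusted p up to 0.109). AT5G17760 was the 1 of these 12 that rose in anac090, where 3.66% of all genes tested rose. Of all genes tested, 19.0% lay above wild type without overlap in anac017, 8.37% in anac082 and 13.4% in anac090. Reads shared between near-identical copies could be split by the counting. How alike the UGT74E and SOT neighbours are in sequence was not compared.

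**Figure D4:**
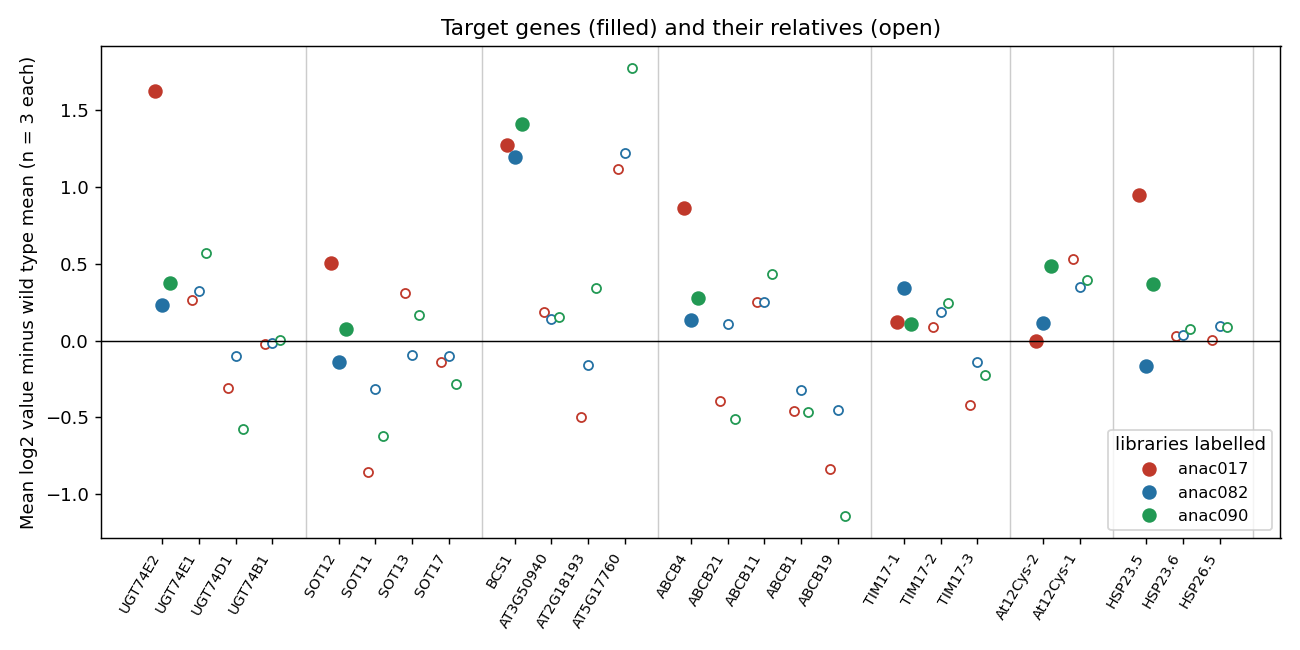
Mean log2 value minus the wild type mean (y axis, n = 3 libraries each) of the targets (filled) and of their paralogs or neighbours (open), by labelled line. SOT12 stands at 0.51 and its neighbour SOT11 at -0.85 in anac017, while AT5G17760 follows BCS1 above 0 in all 3 lines.

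Of 22 genes of mitochondrial respiration and protein import, all tested, none passed in anac017. Their changes ran from 0.03 to 0.53 with a median of 0.19. The outer membrane channel VDAC1 (0.32 ± 0.10, limma adjusted p = 0.0976) and the ATP synthase subunit ATP2 (0.32 ± 0.10, 0.103) had the smallest p. In anac090 the translocase subunit TIM23-2 rose (0.38 ± 0.09, limma adjusted p = 0.0382), 1 of 22 where 3.66% of all genes tested rose. This call was lost without the same libraries as for AT5G17760 (adjusted p up to 0.110). Cytosolic and organellar heat shock genes, of which 4 of 9 were tested, gave no call in any line, with a median of 0.18 in anac017. HSFA2, a heat stress factor under the filter like HSP23.5, stood at 0.06 to 0.70 in wild type and at 0.84 to 1.01 in anac017, also without overlap (0.55 ± 0.28 in the unfiltered fit, limma adjusted p = 0.425). Of all genes tested, 19.0% lay above wild type in this way.

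Of 8 genes that respond to salicylic acid, 1 rose in anac017, none in anac082 and 5 in anac090, where 1.47%, 0.0297% and 3.66% of all genes tested rose. The 8 changes were above 0 in each line, with medians of 1.76 in anac017, 1.07 in anac082 and 2.00 in anac090. The glutaredoxin GRXC9 was the 1 that rose in anac017 (2.1 ± 0.39, limma adjusted p = 0.0274). Those that rose in anac090 were GRXC9, NIMIN1, WRKY70, WRKY38 and the pathogenesis-related gene PR1 (3.60 ± 0.79, limma adjusted p = 0.0357). The GRXC9 call in anac017 was lost without any one wild type or anac017 library (adjusted p up to 0.106), and each of the 5 calls in anac090 was lost without any one wild type library (up to 0.120). Those of PR1 and NIMIN1 were lost without any of 10 of the 12 libraries, all but anac082 replicate 1 and anac090 replicate 2, and that of WRKY70 also without anac017 replicate 3 or anac082 replicate 3. The mean log2 value of the 8 genes was 4.21, 4.76 and 4.67 in wild type, 6.05, 6.36 and 6.43 in anac017, 4.76, 6.38 and 5.96 in anac082, and 6.57, 5.70 and 7.70 in anac090, so that anac082 replicate 1 lay within the wild type range. Of the targets, BCS1 had a higher mean than wild type in all 3 of these lines but was called in anac090 alone. UPOX, UGT74E2 and ABCB4 were called in anac017. Whether the salicylic acid state bears on any target was not tested. An index of the circadian clock, the morning genes CCA1 and LHY minus 5 evening genes, was 2.55 ± 0.93 in wild type and 1.43 ± 0.91, 1.76 ± 0.93 and 1.46 ± 0.72 in anac017, anac082 and anac090. Within replicate numbers it was lower than wild type in all 9 mutant libraries, with differences of -1.18 to -1.09 in anac017, -0.87 to -0.70 in anac082 and -1.36 to -0.87 in anac090. The part of the clock in the results was not tested.

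Markers of leaf cell types were looked at beside these values. Of 3 epidermis markers, 2 were tested and PDF1 was listed at 0 in all 12 libraries. The summed abundance of the 3 was 101 to 135 in wild type, 63.4 to 86.1 in anac017, 79.2 to 86.9 in anac082 and 41.9 to 92.7 in anac090. CER5 fell in anac090, with means of 6.50 in wild type and 5.51 there, 1 of 2 where 3.65% of all genes tested fell. That call was lost without any one library but anac090 replicate 2 (limma adjusted p up to 0.133). ATML1, with means of 4.88 and 4.17, was not called. The 3 guard cell markers summed to 26.4 to 28.1 in wild type and 21.4 to 23.3 in anac017. FAMA (means of 3.24 and 2.71) and MYB60 (3.08 and 2.63) carried that difference, while KAT1 stood at 3.655 and 3.660. The 4 vasculature markers summed to 342 to 444 in wild type and 470 to 547 in anac017. SWEET11 alone carried that difference (0.80 ± 0.23, limma adjusted p = 0.0815), while SUC2 was at 0.00 ± 0.14, XCP1 at -0.02 ± 0.25 and XCP2 at -0.34 ± 0.29. The 4 mesophyll markers, the leaf's own, summed to 8539 to 9482 in wild type and 8583 to 9410 in anac017. Flower markers summed to at most 1.45 in any library, with AP3 listed at 0 in 5 and PI in 4, and dividing cell markers to at most 1.50. The part of these differences in the results was not tested. In bulk leaf RNA, fewer cells of a type and less RNA per cell cannot be told apart.

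By Pearson correlation over the 12 libraries, the genes most like the mean profile of the 6 tested targets, among 11514 genes with a mean log2 value of at least 3, were AT4G37432 (0.96), the processing peptidase TPP1 (0.96), the FAD-dependent oxidoreductase AT5G48440 (0.95), ANAC017 (0.95), the histidine synthesis enzyme HISN5A (0.95) and the resistance protein CW9 (0.95). TPP1 differed by 0.86 ± 0.08 in anac017 and AT5G48440 by 0.98 ± 0.11. UPOX was most like the pentatricopeptide repeat protein EMB2453 (0.98), AT2G20725 (0.97) and the ribonuclease RNR1 (0.96). BCS1 was most like AT2G26190 (0.98), a calmodulin-binding protein, the stress factor ZAT12 (0.97) and AT1G72900 (0.96). ABCB4 shared AT5G48440 and ANAC017 with the mean profile, at 0.95 each. For SOT12 the nearest were the purine permease PUP1 and AT3G20620, both at 0.96, and for UGT74E2 PDIL1-6 at 0.95. The lists share libraries and groups, and the correlations are descriptions with no test. UGT74E2, 1 of the 6 in the mean profile, reached the fit only through the anac017 libraries. The mean profile averaged 0.63 in anac017 and -0.40 in wild type, so likeness to it or to UGT74E2 is no independent result.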

How the data were processed

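Poly(A) RNA of leaves was made into strand-specific TruSeq libraries and read on an Illumina HiSeq machine, per the labels' protocols. TopHat, Cufflinks, CASAVA 1.8.2 and the build TAIR10 are named in the submitters' processing notes without role or order. The scaling of values was not given in the sources used here. Values are in a table of log2 values that the authors deposited, log2 being judged from the range: none is below 0, and at equal rank the libraries are within 0.0818 of one another, so they had been quantile normalized, which hides any rise shared by most genes. No counts are kept, so the depth is unknown and no interval or floor that needs it is given. Of 33726 entries, 529 carry no identifier and were left out. Groups and replicate numbers come from the titles.

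Genes with a mean back-transformed abundance of at least 1 over the 12 libraries (16817) were fitted with limma 3.58.1 in R 4.3.3, all libraries in 1 model of 4 groups with a mean-variance trend, and Benjamini-Hochberg adjustment over all of them. The deposited pseudocount of 1 makes changes of low genes smaller. Targets under the filter were tested with an exact two-sided permutation test, whose smallest p is 0.1, and in the unfiltered fit. The fit was checked on simulated data.

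Replicate numbers come from the titles alone. Same-numbered libraries deviated together in every comparison but anac082 against anac090: the 3 correlations were 0.487, 0.369 and 0.258 for anac017 and wild type, and -0.31 for replicate 2 of anac082 and anac090. The fit with the replicate block is given where it changes a call. The alternatives were another filter or none, a pseudocount of 0.1, only the groups compared, library weights, no trend, a threshold of 0.01, equal library medians and leaving out each library.

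Promoter windows were read from RefSeq TAIR10.1 by locus, since the table uses TAIR10 coordinates. Of the table's genes, 32454 were found there, all on the same chromosome, and 18350 (56.5%) shared at least 1 gene end. The targets, the gene lists and the fit were chosen with earlier results of these data known. Named genes are the targets, up to 4 of each list with the smallest p in anac017 and those past the threshold, any regulator or relative, and the nearest genes by correlation.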

Additional observations from a re-analysis of the deposited data

How the results depend on the processing

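The direction of the 3 called changes of anac017 against wild type and of BCS1 in anac090 was the same under every alternative run, while the calls were not. Against the 3 targets called in anac017, 5 were called with the replicate block, with only the groups compared and with library weights. There 4.11%, 10.3% and 13.0% of all genes rose in place of 1.47%. The count was 1 (HSP23.5) with no filter and 0 at a threshold of 0.01. The counts of 3 and 5 here, and of 4 against anac090, include UGT74E2, which reached the fit only through the anac017 libraries. Leaving it aside, 2 of 5 targets were called as reported and 4 with the block. Leaving out 1 library gave 0 to 5: 0 without wild type replicate 2 or 3 or anac017 replicate 2 or 3, 1 without anac017 replicate 1, 2 without wild type replicate 1, anac082 replicate 1 or 3 or anac090 replicate 1, and 5 without anac090 replicate 2 or 3, where 5.26% and 8.38% of all genes rose. The count of 1 in anac090 was 0 with no filter, with only the groups compared and at 0.01, and 0 to 1 with 1 library left out. None was called in anac082 with any 1 library left out, and 1, BCS1, with library weights or with anac082 replicate 1 and anac090 replicate 3 both left out (2.52% and 2.48% of all genes rose), the second a setting chosen after seeing the data that gave 5 in anac017, where 10.5% rose. The 3 targets higher in anac017 than in anac082 became 1 with only the groups compared, UPOX, 1 with no filter, HSP23.5, which was not among the 3, 0 at 0.01, and 0 to 4 with 1 library left out. Against anac090 the count of 1 became 2 with the block and with no trend, 4 with weights, where 11.9% of all genes were higher, 0 with only the groups compared, and 0 to 1 with 1 library left out. Between anac082 and anac090, 1 target, SOT12, was lower in anac082 with weights. The block changed no other call of a target. Smaller counts at 0.01 follow from the stricter threshold and other causes were not tested.

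Every change of sign was in a difference that missed the threshold as reported. With library weights, whose estimation stopped short of full convergence, the log2 changes were 0.036 for UPOX in anac090, -0.072 and 0.12 for BCS1 in anac017 minus anac082 and minus anac090, -0.22 for TIM17-1 in anac017 minus anac090, and -0.38, 0.15 and 0.19 for UPOX, UGT74E2 and BCS1 in anac082 minus anac090. With both of the libraries named above left out, they were -0.16 for TIM17-1 in anac090, -0.12 and 0.26 for BCS1 in anac017 minus anac082 and minus anac090, and -0.39, 0.15, 0.058 and 0.39 for UPOX, UGT74E2, ABCB4 and BCS1 in anac082 minus anac090, where TIM17-1 kept its sign at 0.58. Leaving out 1 library gave ranges of -0.050 to 0.25 for TIM17-1 in anac017, -0.45 to 0.12 for UPOX in anac082, -0.16 to 0.49 for TIM17-1 in anac090, -0.12 to 0.25 and -0.40 to 0.26 for BCS1 in anac017 minus anac082 and minus anac090, and -0.37 to 0.28 for TIM17-1 in anac017 minus anac090. In anac082 minus anac090 they were -0.10 to 0.54 for UPOX, -0.30 to 0.03 for UGT74E2, -0.29 to 0.04 for ABCB4, -0.48 to 0.18 for BCS1 and -0.15 to 0.50 for TIM17-1.

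Over all genes, 248 rose and 103 fell in anac017, against 691 and 513 with the block, 137 and 36 with no filter and 1731 and 1881 with only the groups compared. In anac090, 616 rose and 613 fell, against 1378 and 1691 with the block and 2 and 1 with only the groups compared. With 3 libraries a group and no depth given, levels near 0, as for At12Cys-2 and HSP23.5, are the least certain.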
